A study of Mus musculus with 6 samples.

Results

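The genes described here are 37 genes of the lysosome, the acidic compartment in which cells break down proteins, sugars, lipids and swallowed material. They were taken as a list of soluble hydrolases and their cofactors, proteins of the lysosomal membrane, and subunits of the vacuolar proton pump. Of these, 36 were measured among 14860 named genes, namely all 17 hydrolases, both soluble cofactors, 7 of 8 membrane proteins and all 10 pump subunits. Cd63 was not analysed here. Lysosomal hydrolases work at low pH, and the vacuolar proton pump makes that pH by driving protons into the lumen with the energy of ATP. Macrophages, granulocytes and other phagocytes hold many lysosomes or related granules, and the transcription factors TFEB and TFE3 are known to bind a short E-box sequence in the promoters of many lysosomal genes.

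Splenocytes of each mouse were enriched on magnetic beads for Sca-1, which primitive blood cells carry on their surface, and their RNA was hybridised to 1 Affymetrix exon array. Every one of the 6 mice was FVB/N and NRASD12/BCL-2 double transgenic, a model of acute myeloid leukaemia (AML). ABT-737, an inhibitor of BCL-2 and its close relatives BCL-XL and BCL-W, was given to 3 mice at 75 mg/kg in 3 doses a week over 33 days, while 3 control mice were untreated per the series description and labelled as controls. The dosing text in the labels' protocols is the same for the control samples, so that they were untreated rests on the series description. Ages, the promoters that drive the transgenes and any vehicle given to the controls are not given in the sources used here.

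Values are log2 signals as the authors deposited them, and a difference is ABT-737 minus control. Array medians over the named genes ran from 7.27 to 7.43 in ABT-737 mice and from 7.20 to 7.44 in control mice. On the first principal component, with 44.1% of the variance, ABT-737 mouse 1 scored -7.4, apart from ABT-737 mice 2 and 3 at 32.2 and 28.1, while the control mice scored -15.0 to -21.0. The Y-linked gene Eif2s3y stood at 9.96 to 10.27 in ABT-737 mice, against 10.16, 9.87 and 4.23 in control mice 1 to 3, so that control mouse 3 stood apart. Kdm5d, also Y-linked, was at 4.77 in control mouse 3 and at 8.05 to 9.06 in the other mice. Y-linked signal was thus uneven between the groups, and the part of sex in the differences was not tested. Kit, a receptor of blood progenitors, averaged 8.22 ± 0.21 in ABT-737 mice and 8.18 ± 0.32 in control mice (SD, n = 3 each). Cd34, another progenitor marker, averaged 9.21 ± 0.38 in ABT-737 mice and 9.90 ± 0.40 in control mice. Of 6 stem and progenitor markers 5 had lower means, with a median difference of -0.38, and 3 were lower at an unadjusted p under 0.05, against 4.45% of all genes, with adjusted p of 0.404 or more by limma. The gene for Sca-1 itself was not analysed here.

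Most lysosomal genes had higher means in ABT-737 mice, but none passed the adjusted threshold. Of the 36 members 34 were higher and 2, Ctsz and Laptm5, were lower, while 44.7% of all genes tested were higher. The median difference was 0.27 over the members and -0.02 over all genes. By limma with Benjamini-Hochberg adjustment, 0 members had an adjusted p under 0.05, as did 0.0% of all genes, and the smallest among the members was 0.318. At an unadjusted p under 0.05, 10 members were higher, 27.8% of those measured, against 5.75% of all genes. None was lower, against 4.45% of all genes. The ABT-737 mice lay above all control mice in 9 members, 25.0% of those measured, against 6.14% of all genes. They lay below all control mice in 1 member, 2.78%, against 7.19% of all genes. The members vary together between mice and are not separate observations of the treatment.

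**Figure D1:**
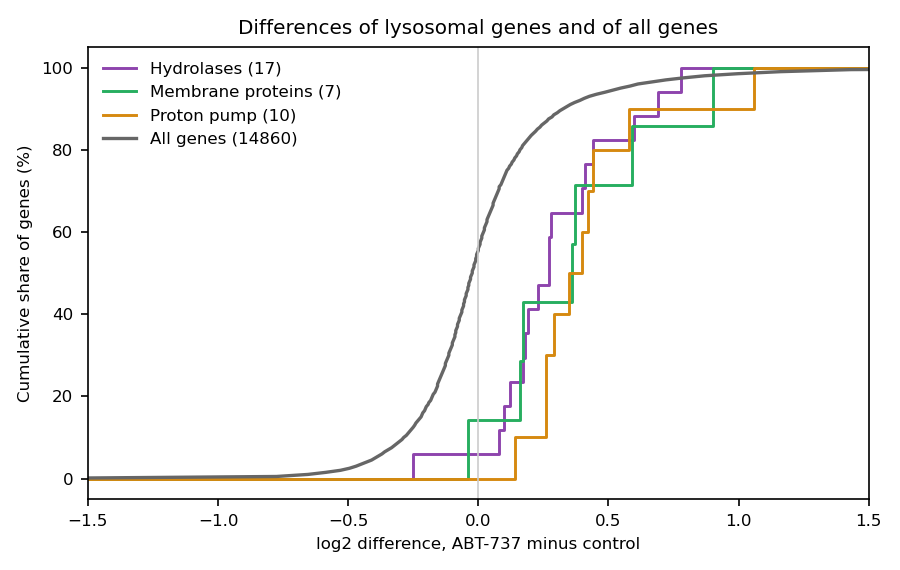
Cumulative share of genes (%) against the log2 difference, ABT-737 minus control, for hydrolases, membrane proteins, the proton pump and all 14860 genes tested. Over most of their length the curves of the 3 lysosomal classes lie to the right of the curve of all genes, with medians of 0.27, 0.36 and 0.38 against -0.02. They cross it at the upper end, where they reach 100% at 0.78, 0.90 and 1.06 while all genes run on to 2.98, beyond the axis.

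The shift was uneven between the mice. ABT-737 mouse 1 lay above all control mice in 13 of 36 members, within their range in 17 and below in 6, while ABT-737 mice 2 and 3 lay above in 30 and 28. ABT-737 mouse 1 was the lowest of its group in 31 members. Control mouse 3 was the highest of its group in 26. Without ABT-737 mouse 1, 21 members were higher at an unadjusted p under 0.05, against 10.3% of all genes, and 5 members passed the adjusted threshold, against 3.43% of all genes in either direction. Of the 10 members at an unadjusted p under 0.05, Ctsd, Cd68, Atp6v0a1, Atp6v0d1 and Atp6v1e1 stayed under it in all 6 fits that left out 1 mouse, Scarb2 and Atp6v1d in 5, Lipa and Man2b1 in 2 and Gla in 1. The 5 past the adjusted threshold without ABT-737 mouse 1 were Ctsd, Ctsl, Cd68, Atp6v0a1 and Atp6v1a, with adjusted p by limma from 0.009 to 0.0453. Without control mouse 2 the number higher at an unadjusted p under 0.05 was 6, against 3.07% of all genes. The number of members in which the groups did not overlap, with ABT-737 above, was 25 without ABT-737 mouse 1, against 16.2% of all genes, and 19 without control mouse 3, against 9.85%.

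**Figure D2:**
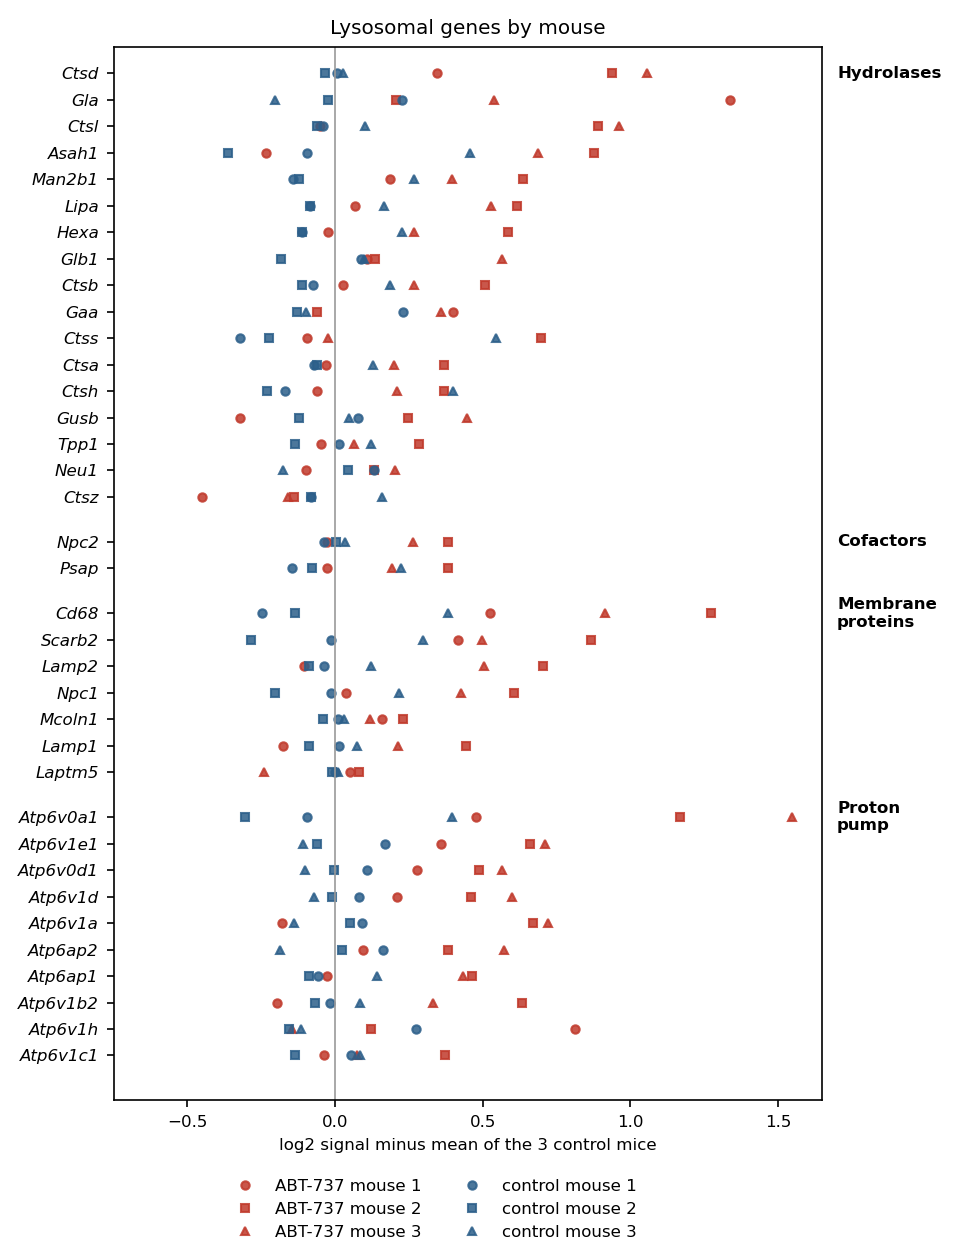
Log2 signal of each measured member in each mouse minus the mean of the 3 control mice, with ABT-737 mice in red and control mice in blue. ABT-737 mouse 1 (red circles) is the lowest of its group in 31 of 36 members, and Atp6v0a1 and Cd68 have the largest differences.

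Promoter sequence was read for the E-box with core CACGTG, the known site of TFEB and TFE3. The motif is known from promoters of lysosomal genes, so an excess among the members was foreseeable and says nothing of ABT-737. RefSeq windows from 250 bases before to 50 bases after a gene's start (build GRCm38.p6) were found for 29 of the 36 members. CACGTG, which reads the same on both strands, lay in a window of 10 of the 29 genes (34.5%), against 10.1% of the 11894 genes on the arrays that had a window. The longer form TCACGTGA, which contains the first, lay in 6 (20.7%), against 1.7%. By class, CACGTG was found in 6 of 14 hydrolases, 2 of 6 membrane proteins, 0 of 2 cofactors and 2 of 7 pump subunits. The 6 genes with TCACGTGA are printed 5′ to 3′ on the gene's own strand, with each CACGTG or TCACGTGA in capitals, and positions are counted from the RefSeq start.
Ctsd, chr7:142387899-142388077, minus strand: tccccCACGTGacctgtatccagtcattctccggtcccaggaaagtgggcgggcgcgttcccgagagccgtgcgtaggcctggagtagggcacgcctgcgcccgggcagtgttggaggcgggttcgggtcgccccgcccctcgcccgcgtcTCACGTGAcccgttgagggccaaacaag
Gla, chrX:134601173-134601253, minus strand: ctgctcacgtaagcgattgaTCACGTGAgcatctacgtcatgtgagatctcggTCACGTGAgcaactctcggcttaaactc
Ctsa, chr2:164833740-164833804, plus strand: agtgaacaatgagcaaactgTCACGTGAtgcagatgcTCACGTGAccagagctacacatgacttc
Mcoln1, chr8:3500428-3500500, plus strand: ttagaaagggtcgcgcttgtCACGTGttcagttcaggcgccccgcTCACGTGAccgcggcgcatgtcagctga
Atp6v0d1, chr8:105566041-105566088, minus strand: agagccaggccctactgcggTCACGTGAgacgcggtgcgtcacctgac
Atp6v1a, chr16:44139364-44139411, minus strand: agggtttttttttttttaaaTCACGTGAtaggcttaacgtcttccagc
Gla and Ctsa each hold TCACGTGA 2 times, from -228 and -195 in Gla and from -13 and 5 in Ctsa. In Atp6v0d1 the match spans the start itself, from -4 to 4. The other genes with CACGTG were Ctsl, Gaa, Glb1 and Lamp1, and Lamp1 held 4 copies between -61 and -10. Of the members with an unadjusted p under 0.05, Ctsd, Gla and Atp6v0d1 held the core, and no match was found in the windows of Lipa, Man2b1, Scarb2, Cd68, Atp6v0a1, Atp6v1d and Atp6v1e1. A match is a string of letters and not a measured site of binding.

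Among the hydrolases 16 of 17 had higher means in ABT-737 mice, with a median difference of 0.27, and 4 were higher at an unadjusted p under 0.05, against 5.75% of all genes. The largest difference was in Ctsd, which encodes cathepsin D, the main aspartic protease of the lysosome. Its signals were 11.88, 12.47 and 12.59 in ABT-737 mice, against 11.54, 11.50 and 11.56 in control mice. The control mice lay within 0.06 of each other and below all ABT-737 mice. The difference was 0.78 (SE 0.19, 1.72-fold), with an unadjusted p of 0.00428 and an adjusted p of 0.318 by limma. Ctsl, the cysteine protease cathepsin L, stood at 9.02, 9.96 and 10.03 in ABT-737 mice, against 9.03, 9.01 and 9.17 in control mice. ABT-737 mice 2 and 3 lay above all control mice and ABT-737 mouse 1 within their range, for a difference of 0.60 (SE 0.26, adjusted p = 0.509 by limma).

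The remaining cathepsins had smaller differences. Ctsz, the carboxypeptidase cathepsin X/Z, was the only member in which all ABT-737 mice lay below all control mice. Its signals were 11.54, 11.85 and 11.83 in ABT-737 mice, against 11.91, 11.91 and 12.15 in control mice, a difference of -0.25 (SE 0.14, adjusted p = 0.603 by limma). Ctsb, Ctsh, Ctss and Ctsa, which encode cathepsins B, H, S and A, differed by 0.27, 0.17, 0.19 and 0.18, and the groups overlapped in each. Ctss, known for its part in antigen presentation, had 11.83 in ABT-737 mouse 2 and 11.68 in control mouse 3, and 10.81 to 11.11 in the other 4 mice. Its sign turned to -0.06 without ABT-737 mouse 2 and to -0.02 with array weights. Tpp1, a tripeptidyl peptidase, differed by 0.10 (SE 0.13).

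All 7 glycosidases, which cut sugars from glycogen, glycolipids and glycoproteins, had higher means, from 0.08 for the sialidase Neu1 to 0.69 for Gla. Gla, the alpha-galactosidase that cleaves globotriaosylceramide, stood at 11.08, 9.95 and 10.28 in ABT-737 mice, against 9.97, 9.72 and 9.54 in control mice (unadjusted p = 0.0433, adjusted p = 0.468 by limma). Here ABT-737 mouse 1 was the highest of all 6 mice and ABT-737 mouse 2 lay just below control mouse 1. Without ABT-737 mouse 1 the difference was 0.37 in place of 0.69, with an unadjusted p of 0.0762 by limma. Man2b1, the lysosomal alpha-mannosidase, stood at 11.14, 11.59 and 11.35 in ABT-737 mice, against 10.81, 10.83 and 11.22 in control mice, a difference of 0.41 (SE 0.17, unadjusted p = 0.0461, adjusted p = 0.479 by limma). ABT-737 mouse 1 lay below control mouse 3. Glb1, the beta-galactosidase used as a senescence stain, was at 9.53, 9.56 and 9.99 in ABT-737 mice, against 9.51, 9.24 and 9.52 in control mice. The groups did not overlap, but the gap between them was 0.01 and the difference of 0.27 had an unadjusted p of 0.138 and an adjusted p of 0.643 by limma. Hexa, a subunit of beta-hexosaminidase, the acid alpha-glucosidase Gaa and the beta-glucuronidase Gusb differed by 0.28, 0.23 and 0.12, with overlapping groups. Gusb turned to -0.04 without ABT-737 mouse 3, and Neu1 to -0.01 without control mouse 3.

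Both hydrolases of lipids were higher. Lipa, the acid lipase that frees cholesterol from cholesteryl esters, stood at 10.74, 11.29 and 11.20 in ABT-737 mice, against 10.59, 10.59 and 10.84 in control mice. The difference was 0.40 (SE 0.17, unadjusted p = 0.0495, adjusted p = 0.488 by limma), and ABT-737 mouse 1 lay below control mouse 3. Asah1, the acid ceramidase, was at 9.07, 10.18 and 9.99 in ABT-737 mice, against 9.21, 8.94 and 9.76 in control mice. ABT-737 mouse 1 lay between the lower control mice, and the difference of 0.44 (SE 0.33) had an adjusted p of 0.726 by limma. The soluble cofactors differed less. Psap, the precursor of the saposins that present sphingolipids to their enzymes, stood at 13.07, 13.48 and 13.29 in ABT-737 mice, against 12.95, 13.02 and 13.32 in control mice. Npc2, which carries cholesterol in the lumen, stood at 10.80, 11.21 and 11.09 in ABT-737 mice, against 10.79, 10.83 and 10.86 in control mice. Their differences were 0.18 (SE 0.16) and 0.21 (SE 0.13), with adjusted p of 0.762 and 0.672 by limma.

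Of the 7 membrane proteins 6 were higher, against 44.7% of all genes, with a median difference of 0.36, and 2 were higher at an unadjusted p under 0.05, against 5.75% of all genes. Cd68, a heavily glycosylated protein of the lysosomes of macrophages, stood at 11.46, 12.21 and 11.85 in ABT-737 mice, against 10.69, 10.80 and 11.32 in control mice. All ABT-737 mice lay above all control mice, and the difference was 0.90 (SE 0.24, 1.87-fold, unadjusted p = 0.00627, adjusted p = 0.33 by limma). Scarb2, also called LIMP-2, carries glucocerebrosidase to the lysosome. It stood at 9.43, 9.88 and 9.51 in ABT-737 mice, against 9.0, 8.73 and 9.31 in control mice, again without overlap, a difference of 0.59 (SE 0.19, unadjusted p = 0.0156, adjusted p = 0.39 by limma).

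Mcoln1, the calcium channel of the lysosomal membrane known as mucolipin 1 or TRPML1, had tight groups. It stood at 10.53, 10.60 and 10.49 in ABT-737 mice, against 10.38, 10.33 and 10.40 in control mice. The groups did not overlap, but the difference was small at 0.17 (SE 0.10, unadjusted p = 0.134, adjusted p = 0.639 by limma). Lamp2 and Lamp1, the main glycoproteins that line the membrane, differed by 0.37 (SE 0.21) and 0.16 (SE 0.17). ABT-737 mouse 1 lay below all control mice for both, and ABT-737 mice 2 and 3 lay above them. Npc1, the membrane partner of NPC2 in cholesterol export, differed by 0.36 (SE 0.18). Laptm5, a membrane protein of blood cells, was at 13.50, 13.53 and 13.21 in ABT-737 mice, against 13.45, 13.44 and 13.46 in control mice. ABT-737 mouse 3 alone lay below the control mice, and the difference of -0.04 (SE 0.12) turned to 0.06 without it.

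All 10 pump subunits had higher means, with a median difference of 0.38, and 4 were higher at an unadjusted p under 0.05, against 5.75% of all genes. The same 4 were without overlap, against 6.14% of all genes with ABT-737 mice above. The pump has a membrane sector, V0, through which protons pass, and a cytosolic sector, V1, which hydrolyses ATP. Both V0 members were without overlap. Atp6v0a1, an isoform of the large subunit that forms the proton channel with the ring, had the largest difference of all members. Its signals were 10.09, 10.78 and 11.16 in ABT-737 mice, against 9.52, 9.31 and 10.01 in control mice. The lowest ABT-737 mouse lay 0.08 above the highest control mouse, and the difference was 1.06 (SE 0.30, 2.09-fold, unadjusted p = 0.00836, adjusted p = 0.344 by limma). Atp6v0d1, the subunit that joins the ring to the central stalk, was at 11.12, 11.33 and 11.41 in ABT-737 mice, against 10.95, 10.84 and 10.74 in control mice. Its difference of 0.44 (SE 0.12) had an unadjusted p of 0.0088 and an adjusted p of 0.347 by limma.

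In the V1 sector the groups did not overlap for Atp6v1e1 and Atp6v1d. Atp6v1e1, part of the outer stalks, stood at 10.46, 10.76 and 10.81 in ABT-737 mice, against 10.27, 10.04 and 9.99 in control mice, a difference of 0.58 (SE 0.14, 1.49-fold, unadjusted p = 0.00446, adjusted p = 0.319 by limma). Atp6v1d, part of the central shaft, stood at 10.54, 10.79 and 10.93 in ABT-737 mice, against 10.41, 10.32 and 10.26 in control mice, a difference of 0.42 (SE 0.13, unadjusted p = 0.0147, adjusted p = 0.384 by limma). The ATP-binding subunits were uneven between ABT-737 mice. Atp6v1a, the catalytic subunit, was at 10.42, 11.27 and 11.32 in ABT-737 mice, against 10.69, 10.65 and 10.46 in control mice, so that ABT-737 mouse 1 was the lowest of all. Its difference was 0.40 (SE 0.24), and that of Atp6v1b2 was 0.26 (SE 0.21). Atp6v1c1 and Atp6v1h, which take part in the regulated joining of the sectors, differed by 0.14 (SE 0.14) and 0.26 (SE 0.26). Atp6v1h stood at 10.24 in ABT-737 mouse 1 and at 9.27 to 9.70 in the other 5 mice, and its difference turned to -0.01 without that mouse. The accessory subunits Atp6ap1 and Atp6ap2, the second of which is also the prorenin receptor, differed by 0.29 and 0.35, with overlapping groups.

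**Figure D3:**
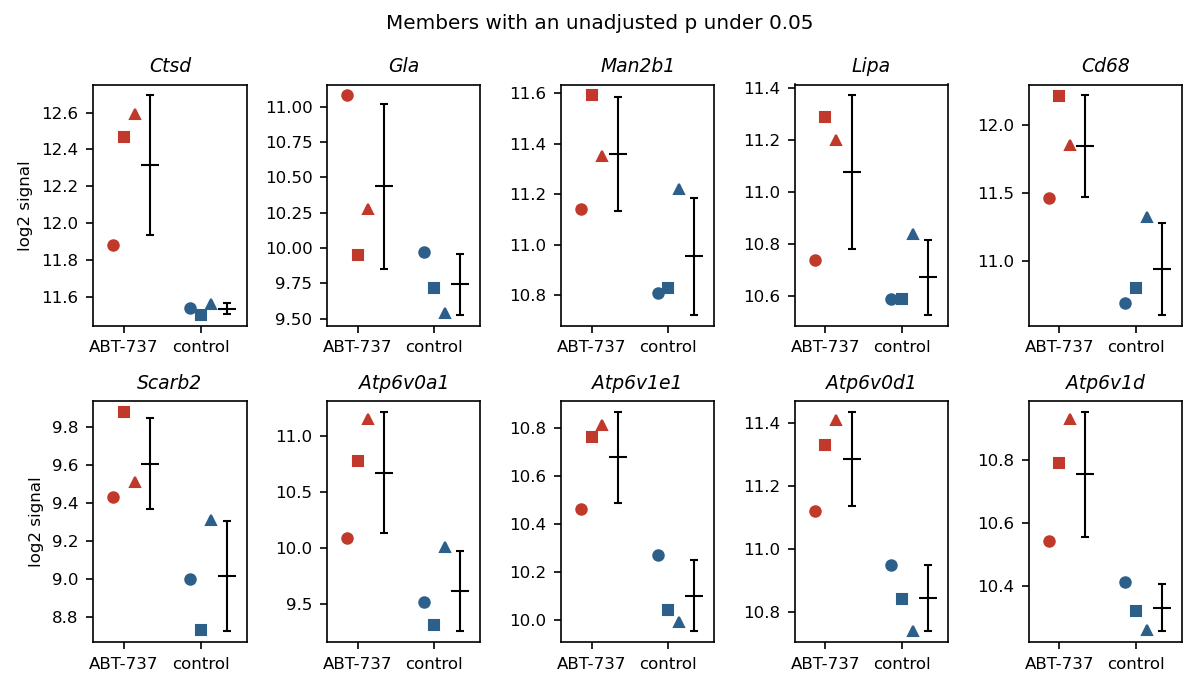
Log2 signal per mouse of the 10 members with an unadjusted p under 0.05, each panel with its own axis, ABT-737 mice in red on the left and control mice in blue on the right, with the mean ± SD of each group in black. The groups do not overlap in Ctsd, Cd68, Scarb2, Atp6v0a1, Atp6v1e1, Atp6v0d1 and Atp6v1d, and they overlap in Gla, Man2b1 and Lipa.

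Class means by mouse were not alike. Relative to the mean of the control mice, hydrolases averaged 0.06, 0.43 and 0.39 in ABT-737 mice 1 to 3, against -0.02, -0.12 and 0.14 in control mice 1 to 3. Membrane proteins averaged 0.13, 0.60 and 0.35 in ABT-737 mice, against -0.04, -0.12 and 0.16 in control mice. In both classes ABT-737 mouse 1 lay below control mouse 3. The proton pump averaged 0.18, 0.54 and 0.54 in ABT-737 mice, against 0.08, -0.07 and 0.00 in control mice, with every ABT-737 mouse above every control mouse. Control mouse 3 was the highest of its group in 13 of 17 hydrolases, 7 of 7 membrane proteins and 4 of 10 pump subunits. Whether the classes differ in their response was not tested.

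Markers of phagocytes and of other blood cells also differed in mean between the groups, and none of those measured passed the adjusted threshold. In bulk RNA, a change in the number of such cells and a change in RNA per cell cannot be told apart. Monocyte and macrophage markers were higher for 12 of 15 measured, with a median difference of 0.43. At an unadjusted p under 0.05, 3 were higher and 1 lower, against 5.75% and 4.45% of all genes. The list's mean log2 signal ran from 9.41 to 9.96 in ABT-737 mice and from 9.10 to 9.57 in control mice. Relative to the control mean the list stood at 0.15, 0.69 and 0.53 in ABT-737 mice, against -0.13, -0.17 and 0.30 in control mice. ABT-737 mouse 1 lay below control mouse 3 here too. Csf1r, the receptor for macrophage colony-stimulating factor, was at 10.98, 12.14 and 11.18 in ABT-737 mice, against 10.65, 10.82 and 11.75 in control mice. Adgre1, which encodes F4/80, was at 9.14, 10.89 and 9.36 in ABT-737 mice, against 8.68, 8.82 and 10.19 in control mice. Both were high in ABT-737 mouse 2 and control mouse 3, the mice in which Ctss was high. Cd14, the co-receptor for lipopolysaccharide, was at 10.67, 11.64 and 11.29 in ABT-737 mice, against 10.09, 10.30 and 9.42 in control mice. Ly86, also called MD-1, was the marker lower at an unadjusted p under 0.05 and is named after its value was seen. It was at 12.19, 12.44 and 11.94 in ABT-737 mice, against 12.52, 12.47 and 12.85 in control mice, a difference of -0.42 (SE 0.17, adjusted p = 0.46 by limma).

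Granulocyte markers were higher for 11 of 14, with a median difference of 1.28 and a range from -0.55 to 2.93, the last in Cxcr2. At an unadjusted p under 0.05, 10 were higher and 0 lower, against 5.75% and 4.45% of all genes. The ABT-737 mice lay above all control mice in 8 of the 14, against 6.14% of all genes. The list's mean log2 signal was 11.94 to 12.89 in ABT-737 mice and 10.81 to 11.63 in control mice. It was lowest in control mouse 3, the control mouse with the highest mean of the lysosomal members. Relative to the control mean the granulocyte markers stood at 0.61, 1.43 and 1.57 in ABT-737 mice, against 0.31, 0.20 and -0.51 in control mice. Erythroid markers stood at -0.70, 1.30 and 2.02 in ABT-737 mice, against 0.24, -0.12 and -0.12 in control mice, and 7 of 7 had higher means. Their mean log2 signal ran from 6.60 to 9.32 in ABT-737 mice and from 7.18 to 7.54 in control mice. B cell markers stood at -0.08, -1.0 and -0.76 in ABT-737 mice, against 0.00, -0.17 and 0.18 in control mice, and 9 of 9 had lower means. Their mean log2 signal ran from 10.75 to 11.66 in ABT-737 mice and from 11.57 to 11.92 in control mice. A log2 array signal has no zero, so none of these markers could be called absent. The part of any of these cell types in the lysosomal differences was not tested.

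**Figure D4:**
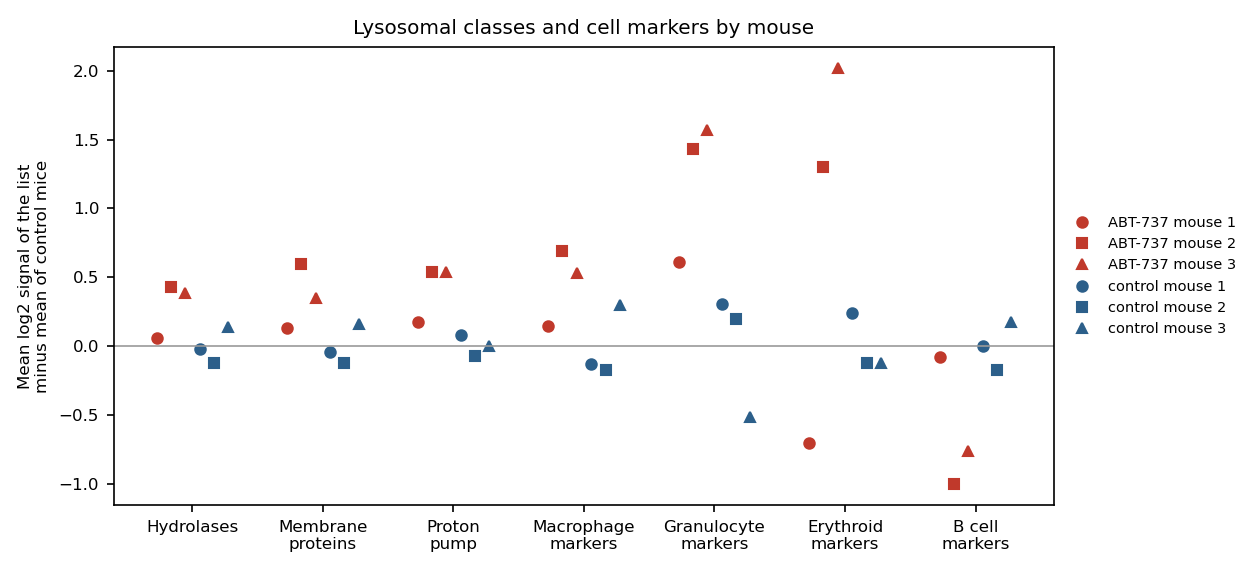
Mean log2 signal of each list in each mouse minus the mean of the 3 control mice, for 3 lysosomal classes and 4 lists of cell markers, with ABT-737 mice in red to the left of control mice in blue. ABT-737 mouse 1 lies near the control mice in the lysosomal classes, and every ABT-737 mouse lies above every control mouse for the proton pump and for granulocyte markers.

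Other genes of the same pathway were counted from further lists. Of 28 other lysosomal hydrolases 23 were higher, with a median of 0.22, 5 had an unadjusted p under 0.05, all higher, against 5.75% of all genes, and 0 had an adjusted p under 0.05. The ABT-737 mice lay above all control mice in 5 of the 28, against 6.14% of all genes, and below in 1, against 7.19%. That 1 was Acp5, the tartrate-resistant acid phosphatase, at -0.27 (SE 0.13, unadjusted p = 0.0732, adjusted p = 0.538 by limma). Acp5 is named after its value was seen. The smallest p values belonged to Ctsk, cathepsin K, at 0.42 (SE 0.12), Plbd2 at 0.35 (SE 0.12) and Ggh, which removes glutamates from folates, at 0.70 (SE 0.27). Ctsk was dim, at 5.50 to 6.11 in all mice, below the median of every array. For Ggh the groups overlapped, with ABT-737 mouse 1 at 7.38 and control mouse 3 at 7.47. Of 23 other lysosomal membrane proteins 18 were higher, with a median of 0.26, and 8 had an unadjusted p under 0.05, all higher, against 5.75% of all genes. Tpcn1, a cation channel of endosomes and lysosomes, stood at 9.45, 9.54 and 9.72 in ABT-737 mice, against 9.09, 8.88 and 9.06 in control mice, with a difference of 0.56 (SE 0.12, adjusted p = 0.281 by limma). Cln3, the protein mutated in juvenile Batten disease, was higher by 0.74 (SE 0.18, adjusted p = 0.319) and Slc15a3, a transporter of peptides and histidine, by 0.49 (SE 0.15, adjusted p = 0.375). None of the 3 overlapped between the groups, but they were named for the smallest p values of the list. Of all 23, 8 had every ABT-737 mouse above all control mice, against 6.14% of all genes.

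Of 11 other pump subunits 7 were higher, with a median of 0.05 and differences from -0.07 to 0.38. At an unadjusted p under 0.05 there were 0, against 5.75% of all genes higher and 4.45% lower. Groups without overlap also numbered 0, against 6.14% of all genes with ABT-737 above and 7.19% below. For a list of 11 genes a count of 0 lies near these shares. Dim signals were part of this list. Atp6v1e2, Atp6v1g3, Atp6v1c2, Atp6v1b1 and Atp6v0d2 had group means from 4.11 to 6.39, below the array medians of 7.20 to 7.44. Whether a change could be seen in such dim genes was not tested, so the median and the count of 0 say little of them. Tcirg1, which encodes the a3 isoform of the same subunit as Atp6v0a1, had the largest difference of the 11 and was picked out after its value was seen. It stood at 10.72, 11.28 and 11.25 in ABT-737 mice, against 10.58, 10.63 and 10.89 in control mice, a difference of 0.38 (SE 0.18, adjusted p = 0.534 by limma). The difference between the isoforms was not tested. Among 10 genes that sort enzymes to the lysosome 6 were higher, with a median of 0.09. The retromer subunit Vps26a was higher by 0.33 (SE 0.13) and the adaptor Gga2 lower, at -0.46 (SE 0.20), both at an unadjusted p under 0.05, with adjusted p of 0.446 and 0.488 by limma. They were the only genes of the 10 under that p, 1 in each direction, against 5.75% of all genes higher and 4.45% lower.

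Genes that govern the lysosome, such as the TFEB family and the mTORC1 docking complex, had a median of 0.08, with 7 of 11 higher. Of the 11, 0 had an unadjusted p under 0.05, against 5.75% of all genes higher and 4.45% lower. The ABT-737 mice lay above all control mice in 0 of them, against 6.14% of all genes, and below in 1, against 7.19%. That gene was Lamtor5, a subunit of the docking complex, at -0.23 (SE 0.11, unadjusted p = 0.0682 and adjusted p = 0.528 by limma). The family members, which like Lamtor5 were not chosen by the naming rule, differed by 0.10 (SE 0.12) for Tfeb, 0.41 (SE 0.20) for Tfe3, 0.45 (SE 0.28) for Mitf and -0.45 (SE 0.32) for Tfec, with overlapping groups. The 2 measured cathepsin inhibitors, of 10 listed, were Cst3, cystatin C, at 0.17 (SE 0.23) and Cstb, cystatin B, at 0.42 (SE 0.21). None of the genes in these lists passed the adjusted threshold.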

How the data were processed

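The authors deposited 1 table of log2 signals from 6 arrays. The log2 scale was read from the values, which run from 2.74 to 14.3 over the named genes. The submitters' processing notes name build mm9, and normalization, summarisation and filters are not given in the sources used here. Of 23332 entries, the platform annotation gives 1 symbol to 14996, several to 1019 and none to 7317. Only entries with 1 symbol were used, with the brightest entry per gene, leaving 14860 genes, and each member had 1 entry. The treatment labels gave the groups, and mice were numbered in accession order. Each array is a separate animal, and p-values rest on the spread between animals. In limma each gene's variance was drawn toward a value common to all genes, so an SE or p does not reflect that gene's spread alone. The small number of arrays limits precision.

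The test of each gene was limma 3.58.1, run in R 4.3.3 as lmFit followed by eBayes, without covariates, over all genes, with Benjamini-Hochberg adjustment and a threshold of 0.05. Figures used matplotlib 3.10.9 in Python 3.11.15. The test was also checked with simulated arrays, in which genes varied independently of each other. Of genes changed by a log2 of 1, the smallest step, 78.0% were called. Smaller changes, the case for every member but Atp6v0a1, were not simulated. The simulation changed 200 genes by a log2 of 1 to 4, which makes the adjusted threshold easier to pass. In the data 0.0% of all genes passed it, so the 78.0% does not carry over to them or to Atp6v0a1.

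The members and lists were chosen with earlier results of these data known, so they give no independent evidence of direction. Values per mouse are given for members with an unadjusted p under 0.05, groups without overlap or the 2 largest differences of a class, and for some others chosen after their values were seen. Of each pathway list, up to 3 genes with the smallest p under 0.05 are named. The other cell marker lists gave medians of -0.15 for T cells, 0.45 for plasma cells, -0.04 for dendritic cells, 0.24 for megakaryocytes, -0.16 for mast cells and basophils and -0.38 for stem and progenitor cells.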

Additional observations from a re-analysis of the deposited data

How the results depend on the processing

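Every class median stayed positive under quantile normalization, centring of arrays on their median, removal of the dimmest 30% of genes, array weights, a trended or a robust variance, averaging of entries per gene, and each mouse left out. With 1 mouse left out the medians ran from 0.15 to 0.37 for hydrolases, 0.10 to 0.31 for cofactors, 0.20 to 0.52 for membrane proteins and 0.29 to 0.51 for the pump. The lowest values of the first 3 classes came without ABT-737 mouse 2. At an unadjusted p under 0.05, 6 to 21 members were higher with 1 mouse left out, against 3.07% to 10.3% of all genes. With all 6 mice, 5 members were higher at an unadjusted p under 0.01, against 1.92% of all genes. Under that p of 0.05, 1 member, Ctsz, was lower with quantile normalization or array weights. In the main fit 4.45% of all genes were lower under that p. Members with ABT-737 above all control mice numbered 9 to 25 with 1 mouse left out, when such separation is also commoner over all genes (7.83% to 16.2%). Members past the adjusted threshold numbered 0 to 5, and only without ABT-737 mouse 1 was the count above 0. In that fit 3.43% of all genes passed, in either direction. Signs turned for Ctss at -0.02 (array weights). With 1 mouse left out, Ctss ran from -0.06 (without ABT-737 mouse 2) to 0.47, Gusb from -0.04 (without ABT-737 mouse 3) to 0.35, Laptm5 from -0.09 to 0.06 (without ABT-737 mouse 3), Atp6v1h from -0.01 (without ABT-737 mouse 1) to 0.47 and Neu1 from -0.01 (without control mouse 3) to 0.17. The cause of these turns was not tested. No paired analysis was possible because no label pairs a mouse of 1 group with a mouse of the other.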
